A study of Mus musculus with 207 samples.

Results

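Transcripts of 7 zinc-handling genes were described in single islet cells that the labels call beta cells: the zinc exporters Slc30a8, Slc30a5 and Slc30a7, the zinc importers Slc39a7 and Slc39a14, and the metallothioneins Mt1 and Mt2. The genes were chosen by name for their role in zinc handling, and they are 7 of the 44448 rows of the deposited expression table. All 7 were found by NCBI Gene number. The study set 69 Old cells, from male mice aged 26 months, beside 138 Young cells, from male mice aged 3 months, all from pancreatic islets. The mouse strain is not given in the sources used here. No cell is tied to an animal in the labels, so each age counts as 1 sample. The comparison of the ages therefore has no replicate check, and no p-value is given for it.

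Beta cells hold more zinc than most cells, because insulin is stored in the secretory granule as crystals of zinc-bound hexamers. Proteins of the Slc30 (ZnT) family move zinc out of the cytosol, into granules, into the Golgi or out of the cell, and those of the Slc39 (ZIP) family move it into the cytosol. Metallothioneins are small cysteine-rich proteins that bind zinc in the cytosol, and their genes are switched on by zinc through the transcription factor Mtf1, and also by glucocorticoids and other stress signals.

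Levels are in TPM, a unit of transcript abundance scaled to gene length and to a fixed total per cell. The read depth behind a value is therefore unknown, and depth shows only in the number of genes per cell at TPM 1 or above. That number had a median of 4078 in Old cells (range 1916 to 6007) and of 4291.5 in Young cells (range 1604 to 6654). Detection of a gene in a cell means at least 1 TPM, and shares of cells carry 95% Clopper-Pearson intervals that cover counting error only. A value of 0 does not show that a gene is silent, since even Gapdh, which cells in general use, was listed at 0 in 28 of the 207 cells. The label was borne out by insulin transcripts: Ins2 averaged 475818 ± 83128 TPM in Old cells, against 495521 ± 91955 TPM in Young cells, and Ins1 averaged 43428 ± 15544 TPM in Old cells and 49802 ± 16516 TPM in Young cells (mean ± SD between cells). Of the beta-cell markers, 8 of 9 had a mean of at least 1 TPM at either age. The other, Mafa, averaged 0.395 TPM in Old cells and 0.0239 TPM in Young cells.

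An earlier analysis of the same data found 8 stretches of consecutive cell numbers that differ in technical character, and these runs are used here as blocks of cells, not as groups of the study. Each run holds cells of 1 age, so what is due to run and what to age cannot be told apart. The Old runs are cells 139 to 158, then 159 to 190, then 191 to 199, then 200 to 207. The Young runs are cells 1 to 39, then 40 to 54, then 55 to 86, then 87 to 138. By their mitochondrial rRNA and tRNA the runs were sorted into a low and a high kind, with runs of either age in each. In the low kind (40 Old and 54 Young cells) mitochondrial rRNA and tRNA took a mean of 0.264% of TPM in Old cells and 0.373% in Young cells. In the high kind (29 Old and 84 Young cells) they took 2.24% in Old cells and 1.28% in Young cells. Values within each kind are given beside the pooled ones.

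The 7 genes spanned the full range from among the most abundant transcripts of the cell to hardly detected. By median TPM the order in Old cells was Slc30a8 (337), Mt1 (154), Slc39a7 (33.2) and Mt2 (4.38), with Slc30a5, Slc30a7 and Slc39a14 at 0. In Young cells it was Slc30a8 (432), Mt1 (270), Mt2 (17.6), Slc39a7 (17.0), Slc30a5 (1.28), Slc30a7 (0.172) and Slc39a14 (0). At both ages the middle 50% of cells overlapped between every pair of neighbours in this order, so no step of it was larger than the spread between cells. Over all 207 cells, the median of Slc30a8 ranked 58 among the 44448 rows and that of Mt1 ranked 122.

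**Figure D1:**
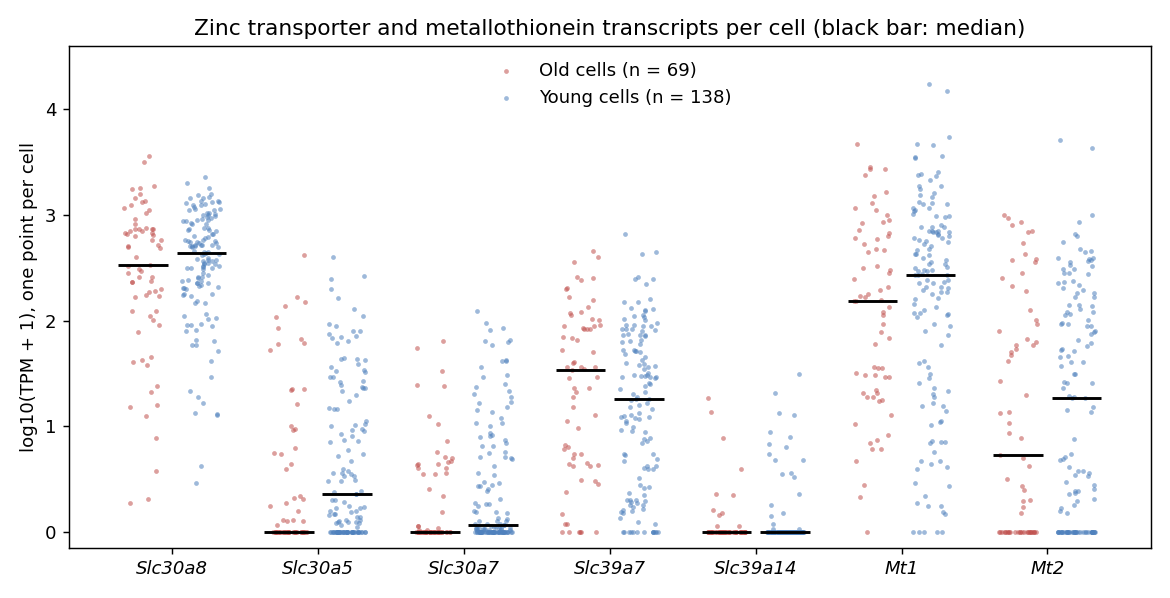
Each point is 1 cell, the vertical axis is log10(TPM + 1), and Old cells (n = 69) stand left of Young cells (n = 138) for each gene, with black bars at the medians. Slc30a8 and Mt1 are seen in nearly every cell, Mt1 and Mt2 spread from 0 up to 17317 and 5101 TPM, and Slc39a14 is at 0 in most cells of both ages.

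Slc30a8 encodes ZnT8, the transporter that loads zinc into the insulin granule, and by median it was the most abundant of the 7 genes at both ages. It lay between 0.879 and 3609 TPM in Old cells, with a median of 337, and between 1.90 and 2301 TPM in Young cells, with a median of 432. No cell of either age was listed at 0, and the ranges overlapped almost wholly. It was detected in 68 of 69 Old cells (98.6%, 92.2 to 99.96%) and in 138 of 138 Young cells (100%, 97.4 to 100%). Within a cell, Slc30a8 made up a median of 95.9% of the summed TPM of the 10 Slc30 genes in Old cells (range 0.223 to 100%) and 94.9% in Young cells (range 26.1 to 100%). The gene lies on chromosome 15, 52295553 to 52335798 (GRCm38).

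The age difference of Slc30a8 depended on how cells were averaged. Its mean was 591 ± 688 TPM in Old cells and 555 ± 467 TPM in Young cells, and the log2 ratio (Old over Young) was 0.09. Averaged as log2(TPM+1) first, Old minus Young was -0.43, with the opposite sign. The middle 50% of cells ran from 121 to 740.0 TPM in Old cells and from 205 to 840 TPM in Young cells, so Old cells reached lower at the bottom. At the top, 13 of 69 Old cells and 25 of 138 Young cells had 1000 TPM or more, and the 7 highest Old cells held 37.2% of the Old total.

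Slc30a8 differed more between the kinds of runs than between the ages. In the low kind it averaged 365 TPM in Old cells and 374 TPM in Young cells, and in the high kind 904 TPM in Old cells and 672 TPM in Young cells. The means of the 4 high-kind runs (636 to 1000.02 TPM) all lay above those of the 4 low-kind runs (126 to 470.1 TPM). Of all genes with a mean of 1 TPM or more at either age, 3.44% were separated this way. Slc30a8 was the 1 of the 7 zinc genes that was, and none of the 7 was separated the opposite way (1.08% of all genes). The lowest run, Young cells 40 to 54, also had the fewest detected genes, with a median of 2320 against 3554 to 5104.5 in the other runs. The part of depth in these levels was not tested.

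**Figure D2:**
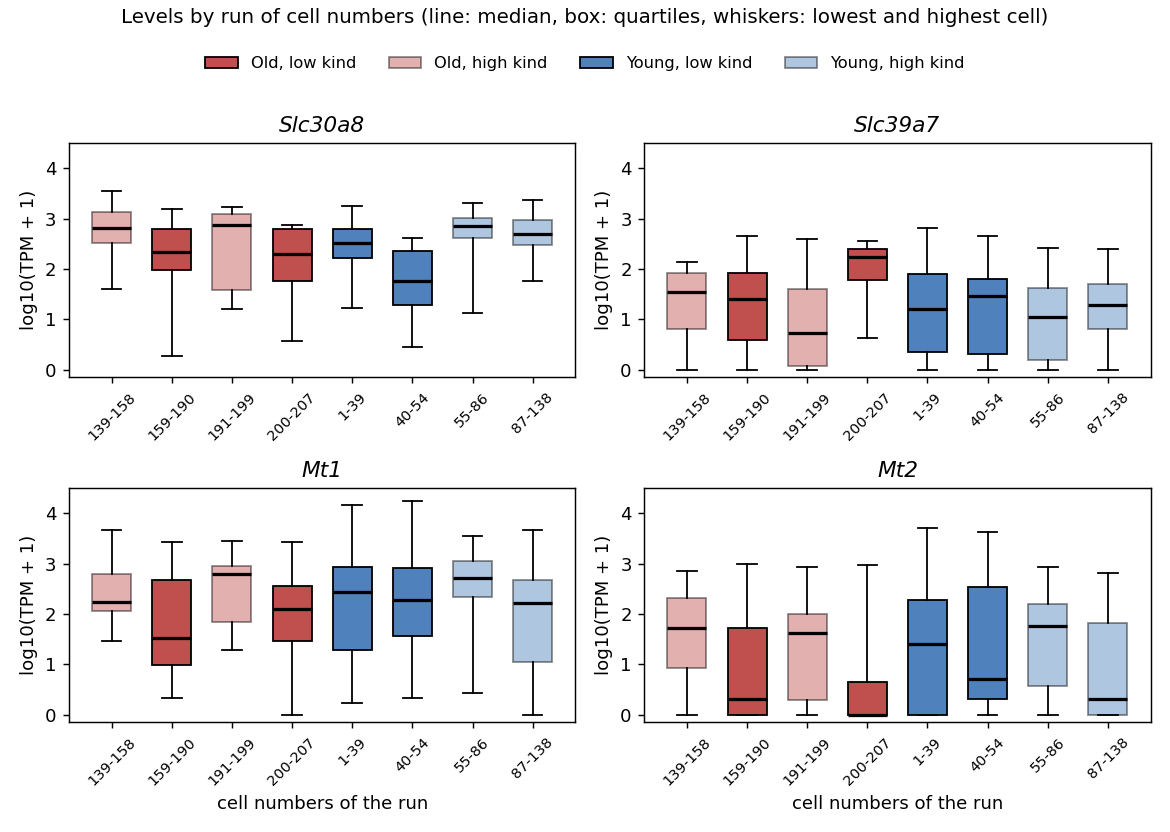
Boxes show log10(TPM + 1) by run of cell numbers for 4 genes, with the line at the median, the box at the quartiles and whiskers at the lowest and highest cell. Old runs are at the left in red and Young runs at the right in blue, and paler boxes are of the high kind. Slc30a8 sits higher in the pale boxes at both ages, while Mt1 and Mt2 vary widely within every run.

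Slc30a5 and Slc30a7 encode ZnT5 and ZnT7, transporters of the Golgi and early secretory pathway that supply zinc to enzymes made there, and both were sparse. Slc30a5 reached 413 TPM in Old cells and 402 TPM in Young cells, with 36 of 69 Old cells and 43 of 138 Young cells listed at 0. It was detected in 36.2% of Old cells (25.0 to 48.7%) and in 52.2% of Young cells (43.5 to 60.7%), and its mean was 20.7 TPM in Old cells and 22.0 TPM in Young cells. A few cells carried that mean: the top 7 Old cells held 78.7% of the Old total and the top 14 Young cells held 67.8% of the Young total.

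Slc30a7 reached 62.4 TPM in Old cells and 123 TPM in Young cells. It was detected in 33.3% of Old cells (22.4 to 45.7%) and in 38.4% of Young cells (30.3 to 47.1%), with a mean of 3.90 TPM in Old cells and 8.42 TPM in Young cells. Its log2 ratio of -0.94 was the lowest of the 7 genes. For the kinds it was -0.24 (low) and -1.73 (high), and it was -0.37 without Young cells 87 to 138, the run with the most detected genes, where Slc30a7 was detected in 59.6% of cells. Slc30a5 lies on chromosome 13, 100802645 to 100833480, and Slc30a7 on chromosome 3, 115938973 to 116007414, where a pseudogene and a microRNA gene overlap it. The pseudogene, Gm6649, was at 0.0808 TPM in Old cells and 0.0194 TPM in Young cells.

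Slc39a7 encodes ZIP7, which releases zinc from the endoplasmic reticulum and Golgi into the cytosol, and it was by far the more widely detected of the 2 importers. It lay between 0 and 453 TPM in Old cells, with a median of 33.2, and between 0 and 653 TPM in Young cells, with a median of 17.0. The ages overlapped over almost all of this range. It was detected in 87.0% of Old cells (76.7 to 93.9%) and in 79.7% of Young cells (72.0 to 86.1%). Its mean was 68.9 TPM in Old cells and 49.2 TPM in Young cells, a log2 ratio of 0.48, the highest of the 7 genes (low kind 0.24, high kind 0.48). The highest run was Old cells 200 to 207, 8 cells with a mean of 167 TPM against 35.8 to 82.9 TPM in the other 7 runs. Without it the log2 ratio was 0.18. The gene lies on chromosome 17, 34028266 to 34031690.

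Slc39a14 encodes ZIP14, a plasma membrane importer of zinc, iron and manganese, and was close to the limit of detection. It was detected in 6 of 69 Old cells (8.70%, 3.26 to 18.0%) and in 15 of 138 Young cells (10.9%, 6.21 to 17.3%), and its means were 0.635 TPM in Old cells and 0.886 TPM in Young cells. No age difference was read at this level. It is the 1 of the 7 genes that had a mean under 1 TPM at both ages, and it lies on chromosome 14, 70303467 to 70351452. All 4 transporters other than Slc30a8 were detected in 0 of 69 Old cells and in 3 of 138 Young cells. Those counts could not exceed the few cells with Slc39a14, so they do not show whether the genes tend to occur together. None of the 4 was detected in 4 Old cells (5.80%) and 16 Young cells (11.6%).

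The metallothionein genes Mt1 and Mt2 lie beside each other on chromosome 8, Mt2 at 94172618 to 94173567 and Mt1 at 94178883 to 94180327, on the same strand. Their coding sequences show the feature by which the proteins hold zinc, many cysteines at fixed places. Both are shown from GENCODE M21 (GRCm38, plus strand), spliced and without the stop codon, with the in-frame cysteine codons TGC and TGT in capitals.
Mt1: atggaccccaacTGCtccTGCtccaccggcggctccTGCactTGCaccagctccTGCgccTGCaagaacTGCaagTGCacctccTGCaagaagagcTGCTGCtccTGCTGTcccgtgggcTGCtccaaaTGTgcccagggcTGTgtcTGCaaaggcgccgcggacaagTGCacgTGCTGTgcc
Mt2: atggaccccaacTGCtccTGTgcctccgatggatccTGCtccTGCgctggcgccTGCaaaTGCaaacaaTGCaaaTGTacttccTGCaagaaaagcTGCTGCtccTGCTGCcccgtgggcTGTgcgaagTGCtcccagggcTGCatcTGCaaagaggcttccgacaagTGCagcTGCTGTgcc
Each has 20 cysteine codons among 61 codons, and all 20 stand at the same places in both genes. Over the whole coding length 145 of 183 bases were identical (79.2%). Reads of such copies could be shared in counting, and how reads were assigned was not tested. The transcripts (549 bases for Mt1 and 511 for Mt2) had 1 stretch of 20 bases in common and 0 of 25 or more.

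Both genes varied widely between cells of the same age. Mt1 lay between 0 and 4668.5 TPM in Old cells, with a median of 154, and between 0 and 17317 TPM in Young cells, with a median of 270. Nearly every cell had some: it was detected in 98.6% of Old cells (92.2 to 99.96%) and in 92.8% of Young cells (87.1 to 96.5%). At the top, 10 of 69 Old cells and 28 of 138 Young cells had 1000 TPM or more. The top 7 Old cells held 53.3% of the Old total of Mt1, and the top 14 Young cells held 60.5% of the Young total.

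Mt2 lay between 0 and 998 TPM in Old cells, with a median of 4.38, and between 0 and 5101 TPM in Young cells, with a median of 17.6. It was detected in 58.0% of Old cells (45.5 to 69.8%) and in 67.4% of Young cells (58.9 to 75.1%), and 25 Old cells and 40 Young cells were listed at 0. Cells of both ages thus ran from 0 to at least 998 TPM, and the ages overlapped throughout, with only 2 cells, both Young, at 1000 TPM or more.

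Mt1 and Mt2 went up and down together from cell to cell. The Pearson correlation of log2(TPM+1) over the 207 cells, after subtracting each run's mean, was 0.73. It was 0.74 among Old cells and 0.73 among Young cells, and within the 8 runs taken singly it lay between 0.52 and 0.80. Spearman's correlation without the run means taken out was 0.78, and with the number of detected genes regressed out Pearson's was 0.72, a setting chosen after the data had been seen. These are descriptions of cells that share libraries and depth, and no p-value is attached. The other 20 pairs among the 7 genes lay between -0.13 and 0.15 over all cells. Among Old cells alone they lay between -0.16 and 0.27 (highest Slc30a7 with Mt2), and among Young cells alone between -0.17 and 0.13. Slc30a8 with Mt1 differed in sign, at 0.20 in Old cells and -0.17 in Young cells. No pair with a transporter thus reached a value like that of Mt1 and Mt2. Slc30a5, Slc30a7 and Slc39a14 were undetected in many cells, which limits any correlation with them. For these sparse genes a low value does not show that they vary apart.

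The 2 genes were not equal in level or in detection. Of the 133 cells with Mt2, 132 also had Mt1, while 28 Old cells and 36 Young cells had Mt1 alone and 0 Old cells and 1 Young cell had Mt2 alone. Among cells with Mt2, the median of Mt1 was 386 TPM in Old cells and 583 TPM in Young cells. Among cells without it, the median of Mt1 was 21.1 TPM in Old cells and 14.4 TPM in Young cells. Where both genes reached 10 TPM, Mt1 was the higher in 95 of 103 cells, with a median ratio of Mt1 to Mt2 of 3.19 in Old cells (quartiles 2.14 and 6.82) and 5.77 in Young cells (quartiles 2.99 and 11.2).

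**Figure D3:**
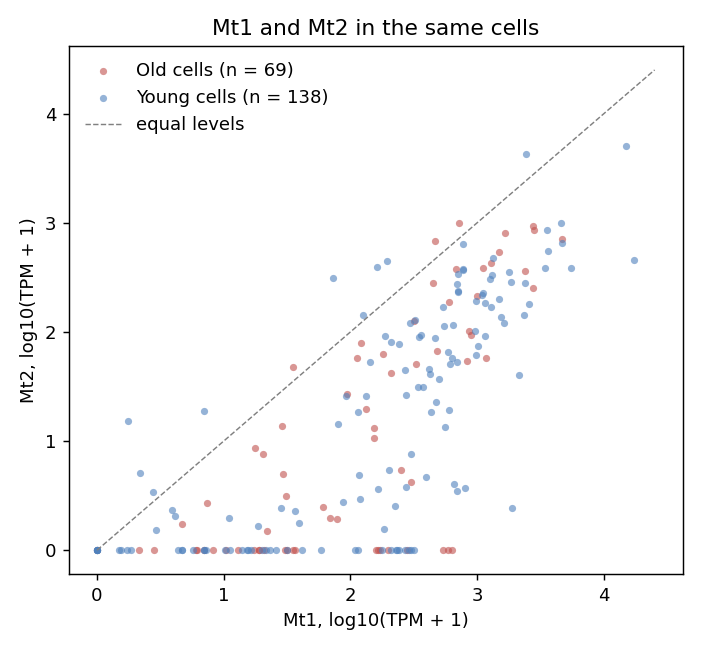
Each point is 1 cell, with log10(TPM + 1) of Mt1 on the horizontal and of Mt2 on the vertical axis, Old cells in red and Young cells in blue, and a dashed line at equal levels. Cells of both ages lie along 1 band, mostly under the line, and the row of points along the bottom holds cells with Mt2 at 0, most of them with some Mt1.

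Because the 2 genes varied together, their promoters are shown, from RefSeq (GRCm38.p6, plus strand), mostly the stretch before the transcript start used there: chr8:94178839-94179138 for Mt1 and chr8:94172368-94172667 for Mt2. Capitals mark the core of the metal response element, the site that Mtf1 recognises, searched as TGCACNC or TGCGCNC on both strands. On the opposite strand the match is seen as its reverse complement.
Mt1: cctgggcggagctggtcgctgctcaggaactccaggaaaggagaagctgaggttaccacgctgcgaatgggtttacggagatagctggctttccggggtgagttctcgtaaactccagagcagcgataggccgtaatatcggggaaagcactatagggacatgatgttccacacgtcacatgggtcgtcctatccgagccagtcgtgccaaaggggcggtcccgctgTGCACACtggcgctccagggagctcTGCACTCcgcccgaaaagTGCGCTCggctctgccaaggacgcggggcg
Mt2: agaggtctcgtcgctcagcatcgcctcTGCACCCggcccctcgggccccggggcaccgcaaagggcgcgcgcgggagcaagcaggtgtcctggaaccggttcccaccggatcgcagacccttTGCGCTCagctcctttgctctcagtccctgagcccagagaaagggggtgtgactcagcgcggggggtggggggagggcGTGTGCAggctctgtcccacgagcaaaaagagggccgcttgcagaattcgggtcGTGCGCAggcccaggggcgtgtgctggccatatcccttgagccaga
The Mt1 window held 3 matches, all on the gene's strand, and the Mt2 window held 4, 2 on each strand, with no overlap between matches. Of 32851 RefSeq promoter windows of this length, 25.7% held at least 1 match, 1.97% at least 3 and 0.517% at least 4. The RefSeq span of Mt1 also begins upstream of that start, inside the window. GENCODE M21 lists transcripts that begin further downstream, 122 and 152 bases from the RefSeq start for Mt1 and 242 bases for Mt2. In the exon bases between the window and those starts lay 2 more matches for Mt1 and 3 for Mt2. Of the other members, Slc30a5 had 1 match, Slc30a7 and Slc39a7 had 0, and Slc30a8 and Slc39a14 were not among the windows used here. These letters were matched and no binding was measured. Sites for other inducers were not searched, and the part of any site in the joint variation of Mt1 and Mt2 was not tested.

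**Figure D4:**
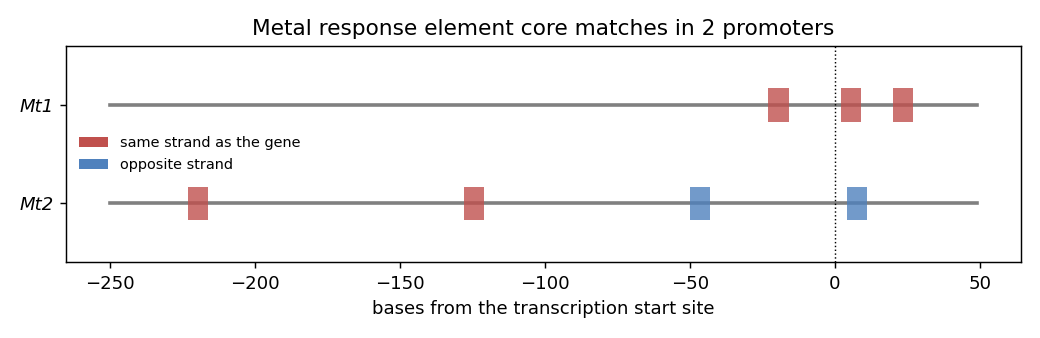
Boxes mark matches to the metal response element core along the promoters of Mt1 (above) and Mt2 (below). Positions are in bases from the RefSeq start (dotted line), red on the gene's strand and blue on the opposite one. Mt1 has 3 matches close to that start, and Mt2 has 4 that are spread over the window. The GENCODE starts further downstream are not drawn.

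Of the 7 genes, 0 were at least 1.5-fold higher in Old cells and 2, Mt1 and Slc30a7, were at least 1.5-fold lower, by log2((mean + 1)/(mean + 1)) of Old over Young. Among all 12155 genes with a mean of 1 TPM or more at either age, 16.8% were that much higher and 26.4% that much lower in Old cells, so the count among the 7 is close to what the table as a whole shows. The median log2 ratio was -0.21 over the 7 genes and -0.10 over all those genes. A mean of 1 TPM or more was reached by 6 of the 7. The ranges of the run means overlapped between the ages for each of the 7 genes. The share of all genes that overlap this way was not computed, so nothing particular to the 7 is read from it.

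The age ratios of the metallothionein means had opposite signs in the 2 kinds of runs, and a few cells weighed heavily on these means. Mt1 averaged 503 ± 850 TPM in Old cells and 854 ± 2099 TPM in Young cells, a log2 ratio of -0.76. In the low kind it averaged 378 TPM in Old cells and 1272 TPM in Young cells (-1.75), and in the high kind 677 TPM in Old cells and 585 TPM in Young cells (0.21). Mt2 averaged 130 TPM in Old cells and 170 TPM in Young cells (-0.39), with 117 TPM in Old cells and 293 TPM in Young cells of the low kind (-1.32) and 147 TPM in Old cells and 91.3 TPM in Young cells of the high kind (0.68).

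In the low kind the 2 highest cells held 36.3% of the Mt1 total of the 40 Old cells and 46.8% of that of the 54 Young cells. For Mt2 they held 41.2% in Old cells and 59.4% in Young cells. Without the 2 highest Young cells alone, the low-kind log2 ratio was -0.89 for Mt1 and -0.08 for Mt2. Leaving out cells of 1 age lowers the mean of that age only, so these values are raised by the choice. Without the 2 highest cells of each age the low-kind log2 ratio was -1.47 for Mt1 and -0.76 for Mt2, both past 1.5-fold lower in Old cells. Both settings were chosen after the data had been seen. In the high kind single cells stood far above the rest too. Mt1 reached 4668.5 TPM in Old cell 158 and 4668 TPM in Young cell 126. The high-kind ratios were not computed without their highest cells, so their signs may rest on few cells.

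Within the kinds, 0 of the 7 genes were 1.5-fold higher and 2 (Mt1 and Mt2) were 1.5-fold lower in Old cells of the low kind, where 23.8% and 34.5% of all genes were. In the high kind 1 (Mt2) was higher and 2 were lower, where 21.9% and 32.8% of all genes were. The 2 lower ones were Slc30a7 (-1.73) and Slc39a14 (-0.63), and the means of Slc39a14 there (0.149 TPM in Old cells and 0.783 TPM in Young cells) lay under the 1 TPM that the genes behind these shares had to reach. The call on Mt1 was lost without Young cells 1 to 39 (-0.56) and without Old cells 159 to 190 (-0.41), and with cells averaged as log2(TPM+1) the value was -0.37. Averaged that way the call on Slc30a7 was lost as well (-0.49), and Slc30a5 was the 1 gene of the 7 past 1.5-fold (-0.59).

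**Figure D5:**
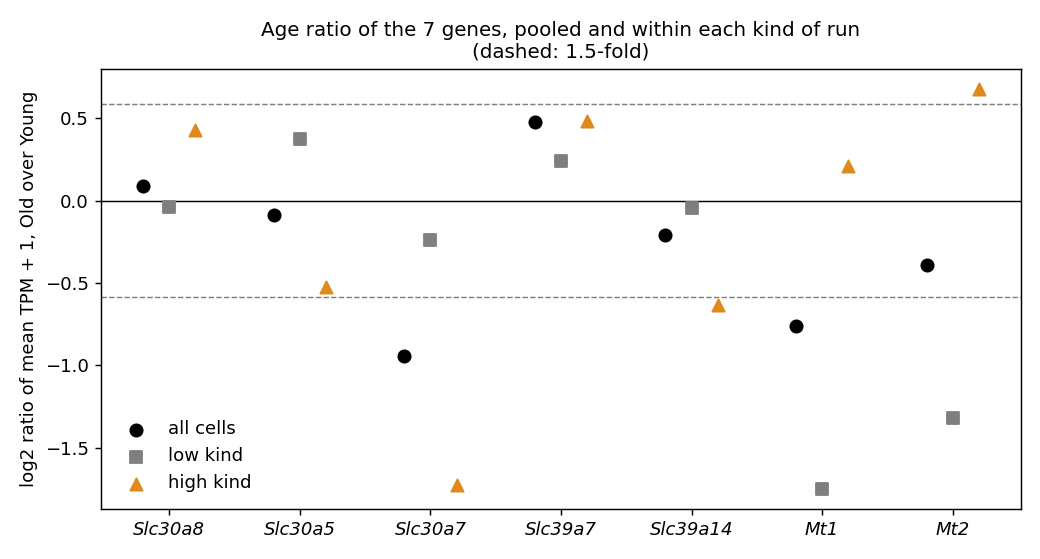
The vertical axis is the log2 ratio of mean TPM + 1, Old over Young, for each of the 7 genes, over all cells (black circles), the low kind (grey squares) and the high kind (orange triangles), with dashed lines at 1.5-fold. Slc39a7 is above 0 and Slc30a7 and Slc39a14 are below 0 in all 3 sets of cells, while the kinds lie on opposite sides of 0 for Mt1, Mt2, Slc30a5 and Slc30a8.

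Markers of other cell types were measured in the same cells. The acinar sum had a median of 0 at both ages and reached 86.2 TPM in Old cells, with Pnlip and Cel at 0 in every cell. The alpha-cell sum had a median of 10.7 TPM in Old cells (highest 246) and 66.0 TPM in Young cells (highest 548), the delta-cell sum 69.5 TPM in Old cells (highest 1586) and 30.2 TPM in Young cells (highest 770), and the PP-cell sum 47.8 TPM in Old cells (highest 2123) and 22.2 TPM in Young cells (highest 890). The ductal sum had a median of 0 at both ages, with the highest cell at 6559 TPM in Old cells and 1221 TPM in Young cells, and it came almost wholly from Spp1, at a mean of 251 TPM in Old cells and 36.6 TPM in Young cells (2.74), since 1 of its 4 markers reached a mean of 1 TPM. Of the 7 macrophage markers 6 had a mean of 1 TPM or more at either age. Their sum had a median of 0 in Old cells (range 0 to 6606 TPM) and of 0.268 in Young cells (range 0 to 16175 TPM). Hormones of other islet cells reached 1000 TPM in 7 Old cells and 0 Young cells, and without those cells the log2 ratios were -0.63 for Mt1, 0.18 for Slc30a8 and -0.83 for Slc30a7. The run-centred correlation with the sum of each of 8 sets of other cells' markers lay between -0.05 and 0.12 for Mt1 and between -0.0028 and 0.12 for Mt2. For Slc30a8 it lay between -0.15 (ductal sum) and 0.06 (alpha-cell sum). The part of other cells' transcripts in the age differences was not tested. With the macrophage sum the correlation was 0.09 for Mt1, 0.12 for Mt2 and -0.14 for Slc30a8. It was 0.17 for Slc30a7, 0.16 for Slc39a7, 0.05 for Slc30a5 and -0.04 for Slc39a14. With the number of detected genes it was 0.21 for Mt1, 0.24 for Mt2 and 0.26 for Slc30a8, and with the summed insulin transcripts it was -0.18 for Mt1, -0.20 for Mt2 and 0.02 for Slc30a8.

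The genes most like Slc30a8 and the metallothioneins were sought among 2760 genes detected in at least 50% of cells, by run-centred Pearson correlation over the 207 cells. For Slc30a8 they were Hadh (0.44), a mitochondrial enzyme of fatty acid oxidation; Scg2 (0.40), a granin of the secretory granule; Tmem59 (0.37), a membrane protein; Iapp (0.37), the amylin hormone stored with insulin; and Hspa5 (0.37), the main chaperone of the endoplasmic reticulum. Hadh and Scg2 were also among the 5 closest by Spearman's correlation without the run means taken out, and the other 3 were not. For Mt1, Mt2 came first at 0.73 and next came Ftl1 (0.35), the light chain of the iron store ferritin, then 3 pseudogenes, Ftl1-ps1, Gm12033 and Gm14438 (0.31 each). Of these 5, Mt2 and Ftl1 were also among the 5 closest by Spearman's correlation. For Mt2, Mt1 was followed by Ftl1 (0.35), Ghitm (0.32), Ftl1-ps1 (0.32) and Selenow (0.32), and the 5 were the same by Spearman's correlation. By Spearman's correlation Selenow, a selenoprotein gene, came before Ftl1 for Mt1 (0.33 against 0.32) and for Mt2 (0.34 against 0.30). Values of Ftl1 can be shared with its pseudogene.

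Other members of the zinc gene families were sparse, and their means differed in both directions (over all genes, 16.8% were higher and 26.4% lower by 1.5-fold). Of the 10 Slc30 genes, 3 (Slc30a2, Slc30a3 and Slc30a10) were listed at 0 in every cell and 7 had a mean of 1 TPM or more at either age; of these, 0 were 1.5-fold higher and 1 was 1.5-fold lower in Old cells, with a median log2 ratio of -0.09. Slc30a6, the partner of ZnT5 in the Golgi, averaged 9.16 TPM in Old cells and 11.9 TPM in Young cells (-0.35), and Slc30a9, a mitochondrial zinc exporter, 20.0 TPM in Old cells and 13.9 TPM in Young cells (0.49). Of the 14 Slc39 genes, 3 (Slc39a4, Slc39a8 and Slc39a12) were at 0 in every cell and 8 had a mean of 1 TPM or more; 2 were higher and 0 lower, with a median of -0.09.

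The 2 higher ones were Slc39a6 and Slc39a9. Slc39a6, a plasma membrane importer, averaged 10.7 TPM in Old cells and 6.25 TPM in Young cells (0.69) although its share of cells was 27.5% at either age. Slc39a9 averaged 13.7 TPM in Old cells and 8.02 TPM in Young cells (0.71), and 1 cell held 54.7% of its Old total. Slc39a1, another plasma membrane importer, averaged 7.85 TPM in Old cells and 11.8 TPM in Young cells (-0.54). Of the 4 metallothionein genes Mt4 was at 0 in every cell and 3 were measured, 1 higher (Mt3, at 8.60 TPM in Old cells and 3.27 TPM in Young cells) and 1 lower (Mt1), with a median of -0.39. A single cell held 57.2% of the Old total of Mt3.

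Genes that share inducers with the metallothioneins were described next. The metal response list holds Mt1 and Mt2 themselves, whose own values are its medians (-0.39 over all cells, low kind -1.32, high kind 0.21), so those say nothing beyond the pair. By their means its other 3 genes differed in both directions. Mtf1 had a log2 ratio of -0.27 (low kind -1.40, high kind 0.61). Slc30a1, a plasma membrane zinc exporter, had 0.44 (low kind 1.35, high kind -0.79). A single cell held 65.3% of the Old total of Slc30a1, so its direction may rest on that cell. Gclc, the catalytic subunit for the first step of glutathione synthesis, had -0.99 (low kind -0.55, high kind -1.39). All 3 averaged under 10 TPM at both ages. The zinc sensor gene Mtf1 itself was seen at 1 TPM in 26.1% of cells at either age. Of 6 measured glucocorticoid-responsive genes 0 were higher and 5 lower, beside 16.8% and 26.4% of all genes, with a median of -0.84. In the low kind 3 of the 6 were lower (34.5% of all genes, list median -0.69) and in the high kind 3 (32.8%, list median -0.57), with 0 higher in both. Among them Dusp1, a phosphatase gene, averaged 52.3 TPM in Old cells and 115 TPM in Young cells (-1.13), Klf9, a transcription factor gene, 12.7 TPM in Old cells and 22.7 TPM in Young cells (-0.79), and Fkbp5, a cochaperone of the glucocorticoid receptor, 5.68 TPM in Old cells and 10.3 TPM in Young cells (-0.76).

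Of 6 measured oxidative-stress-responsive genes 1 was higher and 3 lower, beside the same 16.8% and 26.4% of all genes, with a median of -0.44. Srxn1, which repairs oxidised peroxiredoxins, averaged 32.1 TPM in Old cells and 12.1 TPM in Young cells (1.34), at 3.04 among low-kind and -0.81 among high-kind cells. Txnrd1, the cytosolic thioredoxin reductase, averaged 6.09 TPM in Old cells and 13.1 TPM in Young cells (-0.99), and Gclm, a subunit of the enzyme that starts glutathione synthesis, 14.2 TPM in Old cells and 15.0 TPM in Young cells (-0.07). Of the 3 partners that bind zinc in the secretory pathway, Ins1, Ins2 and the zinc carboxypeptidase gene Cpe, 0 differed by 1.5-fold (median -0.06), and Cpe averaged 1753 TPM in Old cells and 1425.5 TPM in Young cells (0.30).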

How the data were processed

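Islet cells were captured one at a time on a Fluidigm C1 chip, and per the labels' protocols SMARTer chemistry made the cDNA and Nextera XT the libraries. The authors deposited TPM values, 1 column per cell; 0 columns were unused and 0 pairs of cells were identical. The submitters' processing notes name GRCm38 (mm10), CASAVA 1.8.2 and FastQC, while for aligner, counter, annotation and strand handling the entry is: not given in the sources used here. Rows are NCBI Gene numbers, of which 39725 of 44448 matched a RefSeq symbol (GRCm38.p6), and the other 4723 held a mean of 928 TPM per cell. No cell was left out, no doublet caller was run and no clustering was made.

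Groups are the ages in the labels. The age difference is the log2 ratio, Old over Young, of mean TPM with a pseudocount of 1 added to each mean; it understates differences of low genes, and "1.5-fold" is a size, not a test. Named were the 7 members, family members with a mean of 10 TPM or more at either age, the 2 highest and 2 lowest of each other list at that level, and the 5 genes most like Slc30a8, Mt1 and Mt2. Mt3, Mtf1, Slc30a1, Gclc, Spp1 and Mafa were named after their values were seen. The members, lists, markers and runs were chosen with earlier results of these data known. Coordinates are those of RefSeq. Scripts, tested on simulated data, used Python 3.11.15, numpy 2.4.6, pandas 2.3.3, scipy 1.17.1 and matplotlib 3.10.9.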

Additional observations from a re-analysis of the deposited data

How the results depend on the processing

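Each age is 1 sample, so these alternatives move sizes and settle nothing about age. No paired analysis was possible because no result comes from a test and the labels pair no cells. Over 17 settings for each gene, beside those that left out the highest low-kind cells, the log2 ratio of Old over Young ran from -0.43 to 0.49 for Slc30a8, -0.59 to 0.37 for Slc30a5, -1.73 to -0.24 for Slc30a7, 0.18 to 0.66 for Slc39a7, -0.63 to -0.03 for Slc39a14, -1.75 to 0.21 for Mt1 and -1.32 to 0.68 for Mt2. That of Mt1 turned to 0.21 in the high kind alone. The count of genes 1.5-fold lower in Old cells was 2, and 1 with a pseudocount of 10, as a difference of mean log2(TPM+1) (there Slc30a5, neither of the other 2), without Young cells 1 to 39, without Old cells 159 to 190 and among genes with a mean of 10 TPM or more. The count of higher ones was 0, and 1 in the high kind alone (Mt2) and without Young cells 1 to 39, without Young cells 40 to 54, without Old cells 139 to 158 or without Old cells 159 to 190 (Slc39a7 in each). The cause was not tested. Taking Ins1 and Ins2 out of the total moved the median of all genes to -0.19, against -0.10 with them, and gave 3 lower genes, among them Mt2 at -0.64. The correlation of Mt1 and Mt2 lay between 0.72 and 0.78. Of 14 shares of cells, 10 stayed within their intervals when detection meant any TPM above 0, and 2 at 10 TPM.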

Other observations

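The cells with the most metallothionein, chosen after their values were seen, were not the cells with the most Slc30a8. Single cells say little about how genes vary together. Over all cells the run-centred correlation of Slc30a8 was -0.03 with Mt1 and -0.06 with Mt2. Old cell 158 had 4668.5 TPM of Mt1, 708 TPM of Mt2 and 165 TPM of Slc30a8, and Young cell 46 had 17317 TPM of Mt1, 457 TPM of Mt2 and 3.16 TPM of Slc30a8. The most Mt2 in Old cells stood at 998 TPM in cell 168, with 718 TPM of Mt1 and 43.8 TPM of Slc30a8. In Young cells it stood at 5101 TPM in cell 38, with 14856 TPM of Mt1 and 550 TPM of Slc30a8. The last value lay above the Young median of Slc30a8 (432 TPM). The most Slc30a8 stood at 3609 TPM in Old cell 156, with 29.5 TPM of Mt1 and 0 of Mt2, and at 2301 TPM in Young cell 93, with 0.739 TPM of Mt1 and 0 of Mt2. In the 4 cells with the most metallothionein, insulin transcripts took 49.3% (cell 158), 53.9% (cell 168), 55.7% (cell 46) and 30.4% (cell 38) of TPM, and the macrophage marker sum was at most 1.83 TPM. Cell 46 had 2429 detected genes and cell 38 had 4084. Mt1 at 1000 TPM or more was seen in each of the 8 runs, in 1 to 9 cells.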
